A study of Mus musculus with 18 samples.

Results

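Some circular RNAs of mouse brain carried the names of several genes at once. They were chosen as the circles of the deposited Illumina tables whose gene field held 2 or more names after predicted genes, RIKEN clones, LOC entries, microRNAs and small nucleolar RNAs were set aside. The rule gave 1980 of 208914 circles (0.948%), with 139893 back-splice reads, 0.564% of all such reads. A circle can carry several names because the genes lie over each other, because a short gene lies inside the host, or because the circle starts in one gene and ends in a separate neighbour. Position was used to tell these cases apart. Circles that name 2 genes lying apart from each other on the strand of the circle are called bridging circles here. That each end lies in one of these genes was not required.

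A circular RNA forms when a splice donor is joined backward to an acceptor that lies upstream in the same transcript. A circle that holds exons of neighbouring genes therefore needs a precursor that runs past the end of the upstream gene into the downstream one. The last exon of a gene has no splice donor and the first has no acceptor, so linear read-through RNAs typically join the last-but-one exon of one gene to the second exon of the next. The ADAR enzymes convert adenosine to inosine in double-stranded RNA, and such duplexes between introns are known to bring back-splice sites together.

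Circular RNA was enriched with RNase R from whole brains of male C57BL/6J mice aged 3 to 4 months, in 3 genotypes with n = 3 Illumina libraries each. Adar1-2KO mice were Adar1E861A/E861A Ifih-/- Adar2-/-Gria2R/R, which combines an ADAR1 (Adar) without editing activity, no MDA5 (Ifih1) and no ADAR2 (Adarb1) with a Gria2 allele fixed in its edited form. Adar2KO mice were Adar2-/-Gria2R/R and so shared the Adarb1 and Gria2 alleles with Adar1-2KO mice. Wild type mice carried none of these alleles. Oxford Nanopore (ONT) reads of the same kind of cDNA, which run through whole circles, were used from 3 Adar1-2KO, 3 Adar2KO and 2 wild type libraries. Nothing in the labels says beyond the replicate number how the brains relate, so p-values measure the spread between these libraries.

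The Illumina libraries held 1516772 to 4308264 back-splice reads over 21736 to 76743 circles, and the ONT libraries held 186594 to 673705 reads. Adar1-2KO replicate 3 stood apart, with the most reads over the fewest circles of the 9 Illumina libraries. Circles of 8 of 8 neuronal marker genes were found in all 9 libraries, and 0 circles came from the liver genes Alb, Apob and Cps1 or from the globin genes Hbb-bs and Hba-a1. Muscle gene circles reached 24.4 CPM (counts scaled by library size), with Ckm at 0. Circles of Adarb1 summed to 505, 215 and 759 reads in Adar1-2KO, to 317, 353 and 336 in Adar2KO and to 196, 94 and 84 in wild type brains. Which exons the Adarb1 allele lacks is not given in the sources used here, and these circles therefore check no genotype.

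The junctions that identify the bridging circles are shown for those with ONT structures on which the results below turn. ONT exons were matched by length and spacing to GENCODE M21 transcripts, whose bases are printed. The first lines are back-splice junctions, 5′ to 3′, with the last 15 bases of the downstream gene's exon in lower case and the first 15 bases of the upstream gene's exon in capitals.
Mfsd13b to Mettl9, chr7:120594603-120656622: cctatgtagaaaacgTGCCTGGTACTTCTA
Fn3k to Tbcd, chr11:121339708-121366497: atgctgcaggccctgGTGAATGAATGGCAG
Fn3k to Tbcd, chr11:121339708-121394613: ccagactctcagaggGTGAATGAATGGCAG
Nxpe3 to Nfkbiz, chr16:55656684-55670181: gctgaagtcccgaggAAACTGATGACTTAG
Nxpe3 to Nfkbiz, chr16:55656684-55711212: gctgaagtcccgaggAACATGCCTCTTGAA
Tpd52l2 to Dnajc5, chr2:181143698-181188281: taaaaagtcctatcgGTGGAAGAAGAAATT
The next lines are the forward junctions inside such circles where the last matched exon of the upstream gene stood directly before the first matched exon of the downstream gene, with 15 bases of the upstream gene in lower case and 15 bases of the downstream gene in capitals.
Eif4e3 exon 6 to Foxp1 exon 2, inside chr6:99497558-99628752: cagtgttttataaacACCCCGAAACTTTGC
Prkaa1 exon 8 to Ttc33 exon 2, inside chr15:5190084-5219284: tccgtagtattgatgAATGGCTTCCTTTGG
Gabra4 exon 8 to Cox7b2 exon 2, inside chr5:71660794-71799669: gaaacatcccttcagGCAGCTGAGTCAGAA
Zfp148 exon 7 to Slc12a8 exon 2, inside chr16:33287225-33371484: agaagatccataccgAGTGGTCTCCCTATC
Vps4b exon 11 to Kdsr exon 2, inside chr1:106680942-106710515: catttcttctcttttGTCACAGGAGGCTCC
Each forward junction holds bases of both genes by the way it was put together, from annotated exons and not from read bases. The pair of Fn3k lines ends in the same bases because both circles start at exon 5 of Fn3k and close from different exons of Tbcd. The pair of Nxpe3 lines opens with the same bases because both circles close from exon 2 of Nfkbiz. Coordinates are on GRCm39.

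Position separated a large and rare class from small and abundant ones. Bridging circles numbered 703 (35.5% of the members) but held 7994 reads (5.71%), which is 0.337% of all circles and 0.0322% of all back-splice reads. Circles of overlapping genes numbered 474 with 41270 reads (29.5%). This class also took genes that the annotations place apart, where the circles naming both shared no stretch as long as the gap. Circles whose second name was a small RNA gene or a pseudogene, such as one inside an intron of the host, numbered 546 with 82004 reads (58.6%). Rabep1 with Rpl23a-ps2 alone gave 42885 reads of that class over 22 circles, and Adam10 with Cycs-ps1 gave 17104. Another 33 circles named genes that lay apart but were linked by overlap with a further gene named with them. Whether such a further gene is itself a joined transcript of both was not examined. In the overlapping class the name Ipo11-lrrc70, given beside Ipo11 and Lrrc70, holds both gene names. Bridging circles therefore need not be all circles that join neighbours. In 165 circles the genes lay apart in only 1 of the annotations, most often Snhg14 with Snrpn. The remaining members were 34 circles with a name that had no match, 21 antisense to the genes and 4 that ended in a gene set aside by the rule. The order of the genes came from annotations of GRCm38, since no GRCm39 annotation was used here. Taking gene extents only from the GRCm39 ends of circles that name 1 gene called 413 circles read-through and left 1274 unresolved, and of the 703 bridging circles it called 360 read-through and 40 overlapping, placed 114 in neither class and left 189 unresolved.

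**Figure D1:**
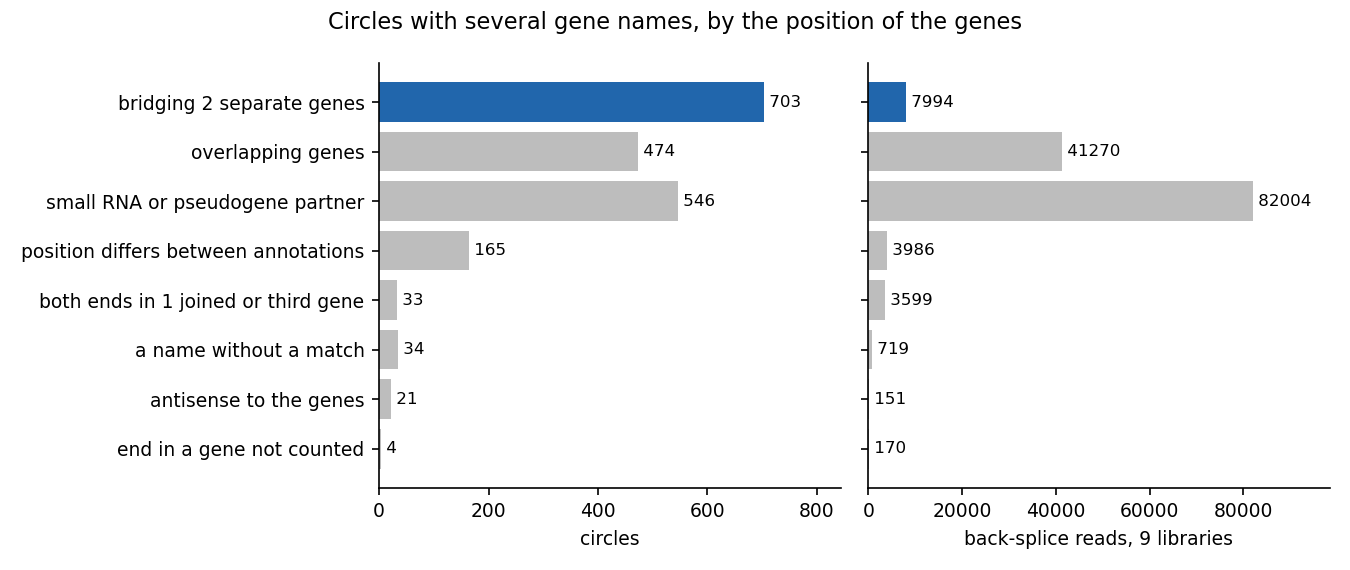
Number of circles (left) and their back-splice reads summed over 9 Illumina libraries (right), by the position of the genes named. Bridging circles (blue) were the most numerous class at 703 and held 7994 reads, against 82004 for circles with a small RNA or pseudogene partner.

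Bridging circles came from 397 ordered gene pairs, of which 283 gave 1 circle and 23 gave 5 or more. Their median genomic span was 45596 bases, against 33453 for circles of overlapping genes and 11599 for circles that name 1 gene. Their median was 3 reads over all libraries, against 5 and 6, and 76.1% were listed in a single library, against 60.1% and 52.7%. In 606 circles the table gave the type exon and in 97 intron. Among circles listed in 3 or more libraries, the median junction ratio, the share of reads at the circle's splice sites that are back-spliced, was 0.265 for 100 bridging circles, 0.506 for 129 overlapping and 0.314 for 59929 circles of 1 gene. These are descriptions of the lists, with no test.

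Many ends of the bridging circles were back-splice sites that the same genes also used alone. The acceptor was shared with a circle of the upstream gene in 420 of 703 (59.7%) and the donor with a circle of the downstream gene in 308 (43.8%). Both were shared in 191 (27.2%) and neither in 166. Where both genes had circles of their own that placed them apart on GRCm39 (495 bridging circles), the stretch between the nearest ends of those circles had a median of 19781 bases, with quartiles at 10529 and 32959 and extremes at 1250 and 170968. Among circles listed in at least 3 libraries the shortest such distance, 2986 bases, was that of Fn3k and Tbcd. The longest bridging circle listed in at least 3 libraries joined Eif4e3 and Foxp1 over 195 kb.

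ONT reads showed the exons inside 41 bridging circles, with 188 reads in all. Their first structures held 3 to 17 exons (median 6) and 370 to 2960 nucleotides (median 972). For 40421 ONT circles of 1 gene with the type exon the medians were 5 exons and 673 nucleotides. All 41 back-splices had AG and GT beside the exons, among circles chosen because Illumina listed them too. Whether that choice set this count was not tested. Exons of both genes were matched in 29. A match needed both edges of an annotated exon, so a last exon spliced onward, or a first exon entered inside it, could not match. The last matched upstream exon was the last but one of an annotated transcript in 28 of these 29. That in none was it the last was set by this way of matching. In 15 of the 29 the exon had several numbers, because transcripts differ, and 1 fitting number was enough for the count. The first matched downstream exon was exon 2 in 24 and exon 1 in 1, and both features met in 23. These counts take the first structure of each circle. Of 4 other isoforms with exons of both genes, from 3 circles, 2 ended the upstream gene at its last but one exon and all 4 began the downstream gene at exon 2. Between the genes, 13 structures had no other exon and 16 had 1 or more exons that matched neither gene. Of the 41 circles, 34 were listed in 1 ONT library and 7 in more.

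**Figure D2:**
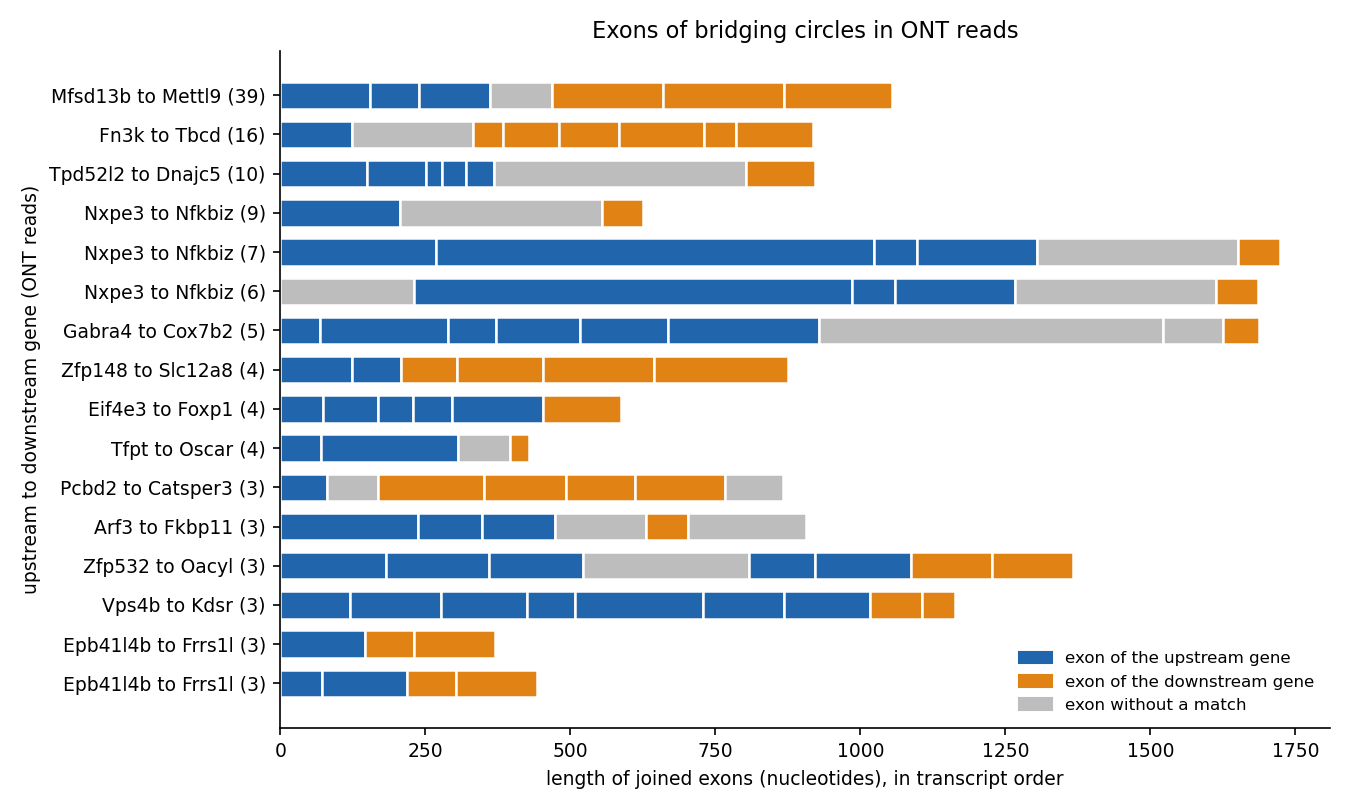
Exon lengths in nucleotides, in transcript order, of bridging circles with at least 3 ONT reads and matched exons of both genes (reads over 8 libraries in brackets). Exons of the upstream gene (blue) come before exons of the downstream gene (orange), with exons that matched neither gene (grey) between them in circles such as Mfsd13b to Mettl9 and not in Vps4b to Kdsr.

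Mfsd13b to Mettl9 had the most ONT reads. Mfsd13b encodes a protein of the major facilitator family and Mettl9 a histidine methyltransferase. The 62.0 kb circle had 7 exons in 1054 nucleotides, 3 of Mfsd13b, 1 without a match and 3 of Mettl9. It came in 2 isoforms, and the other joined Mfsd13b exon 6 of 9 directly to Mettl9 exon 2. On Illumina it had 6, 0 and 186 reads in Adar1-2KO, 10, 4 and 0 in Adar2KO, and 9, 0 and 7 in wild type brains. On ONT it had 2, 0 and 35 reads in Adar1-2KO, 0, 0 and 2 in Adar2KO and 0 and 0 in wild type libraries. Adar1-2KO replicate 3 was the highest library on both platforms, and the Illumina groups overlapped. Circles of Mettl9 alone had 42861 reads, so the bridging circles made up 0.522% of the reads of the pair.

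Other pairs with ONT structures follow. The 26.8 kb circle of Fn3k (fructosamine 3-kinase) and Tbcd (a tubulin folding cofactor) held 8 exons in 919 nucleotides, 1 of Fn3k, 1 unmatched and 6 of Tbcd, and its 16 ONT reads were all in Adar1-2KO replicate 3, where Illumina counted 69. The 44.6 kb circle of Tpd52l2 and Dnajc5, which encodes the synaptic vesicle chaperone cysteine string protein, had 10 ONT reads in that library beside 83 on Illumina. Nfkbiz encodes a nuclear inhibitor of NF-kB, and it gave with Nxpe3 a 13.5 kb circle of 3 exons with 9 ONT reads in 3 libraries and a 54.5 kb circle of 6 exons with 7 reads in Adar1-2KO replicate 3. Usp3 (a histone deubiquitinase) and Fbxl22 (an F-box protein) gave the bridging circle listed in most ONT libraries, with 9 reads in 4. Its 14 exons included 13 of Usp3 and 1 without a match, so no exon of Fbxl22 was identified. Rnf4 (a ubiquitin ligase of SUMO-modified proteins) and Fam193a gave a 68.3 kb circle with 40 Illumina reads in 8 libraries and 6 ONT reads in 2. It held 4 exons of Rnf4 and 2 without a match, so no exon of Fam193a was identified. Gabra4, a GABA-A receptor subunit, and Cox7b2 gave a 139 kb circle with 5 ONT reads in 3 isoforms, in 1 of which Gabra4 exon 8 stood next to Cox7b2 exon 2. Of 52 pairings of a bridging circle with an ONT library that listed it, 30 (57.7%) had Illumina reads in the library of the same genotype and number. For circles of 1 gene with the type exon the share was 87.5%. Over all pairings of these circles with a library the shares were lower and also differed, at 38.7% and 62.7%.

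The share of circles also listed on ONT was set beside that of circles of 1 gene with as many Illumina reads. At 10 to 29 reads, 8.99% of 89 bridging circles were on ONT, against 26.1% of circles of 1 gene. At 30 to 99 reads the shares were 46.4% of 28 and 61.3%, and at 100 to 299 reads 3 of 10 and 82.5%. Neither of the 2 bridging circles with at least 300 reads was on ONT, against 89.5% of circles of 1 gene. Circles of overlapping genes reached 86.4% and 100% in the top 2 ranges. The longer span and the fewer libraries per circle differ between the lists too, and their part in the difference was not tested.

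**Figure D3:**
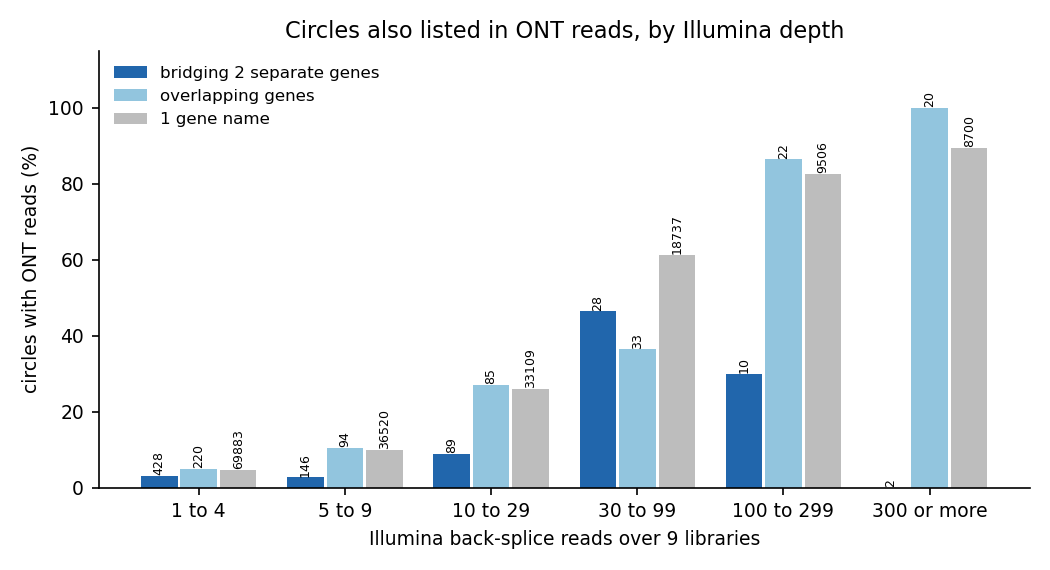
Share of circles with ONT reads (%), by Illumina back-splice reads over 9 libraries, for bridging circles, circles of overlapping genes and circles of 1 gene, with the number of circles above each bar. Bridging circles sit below circles of 1 gene in every range, at 3 of 10 against 82.5% for 100 to 299 reads.

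The 10 most abundant bridging circles came from 8 pairs, led by neighbouring zinc finger genes. Zfp933 to Zfp984 (chr4:147891547-147913253, 21.7 kb) had 119, 144 and 574 reads in Adar1-2KO, 66, 56 and 44 in Adar2KO and 148, 106 and 38 in wild type brains. It was in every library, its median junction ratio was 0.838, and its acceptor and donor were both used by circles of the single genes. Zfp933 alone gave 1 circle with 1 read over all libraries, so the shared acceptor rests on that read. Zfp53 to Zfp52 (chr17:21742854-21758932, 16.1 kb) had 44, 26 and 221 reads in Adar1-2KO, 20, 17 and 17 in Adar2KO and 20, 16 and 9 in wild type brains. Adar1-2KO replicate 3 was the highest library for both circles. Neither had an ONT read. Circles of Zfp53 alone and of Zfp52 alone overlap slightly on GRCm39, so their border is uncertain.

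Eif4e3 to Foxp1 gave the most circles, 26 with 684 reads. Eif4e3 encodes a cap-binding protein and Foxp1 a forkhead transcription factor of neurons, and each gene is also an abundant host alone, with 56527 and 10840 reads. The 26 circles used 8 acceptors and 15 donors, and 11 were listed in 3 or more libraries. The 122 kb circle chr6:99506669-99628752 had 25, 20 and 0 reads in Adar1-2KO, 41, 30 and 54 in Adar2KO and 22, 11 and 10 in wild type brains. The 140 kb circle chr6:99506669-99646528 had 24, 31 and 51 reads in Adar1-2KO, 22, 33 and 13 in Adar2KO and 16, 11 and 14 in wild type brains. The Adar2KO libraries were the 3 highest for the 122 kb circle, and the groups overlapped for the 140 kb circle. Circles that name Foxp1 alone and Eif4e3 alone reach past each other on GRCm39, so the border between the genes is less certain for this pair than for others.

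Several abundant bridging circles rested on Adar1-2KO replicate 3. The 84.0 kb circle of Txndc12 and Rab3b, which also carried the name Kti12, had 238 reads there and 0 in the other 8 libraries. A 44.6 kb circle of the same genes was at 0 in that library and was listed in the other 8, with 4, 6 and 0 reads in Adar1-2KO, 13, 4 and 2 in Adar2KO and 8, 23 and 4 in wild type brains. Rab3b encodes a small GTPase of vesicle exocytosis, and Txndc12 a thioredoxin-like protein of the endoplasmic reticulum. The 54.5 kb circle of Nxpe3 and Nfkbiz had 156 reads there, 3 in Adar2KO replicate 1 and 2 in wild type replicate 1. In that library 7 circles with at least 100 reads held 78.8% of the bridging reads, while no bridging circle passed 148 reads in any other library. By contrast Tmeff1 to Cavin4 (35.4 kb) had 5, 19 and 0 reads in Adar1-2KO, 11, 16 and 26 in Adar2KO, and 14, 9 and 4 in wild type brains. Its 2 ONT isoforms held exons of Tmeff1 and exons without a match, so no exon of Cavin4 was identified. Zfp58 to Zfp874b (13.6 kb) had 19, 7 and 0 reads in Adar1-2KO, 0, 36 and 9 in Adar2KO and 11, 15 and 9 in wild type brains. Both were at 0 in Adar1-2KO replicate 3.

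**Figure D4:**
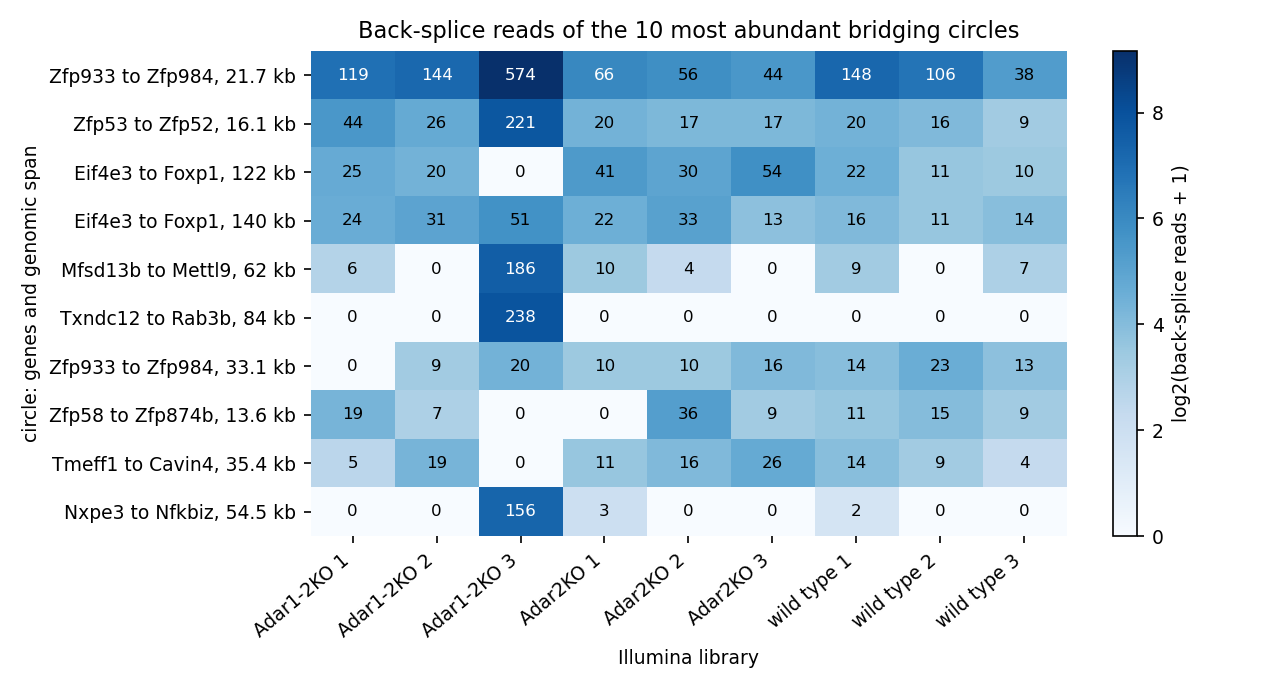
Back-splice reads (numbers; colour, log2 of reads + 1) of the 10 bridging circles with the highest mean CPM over 9 Illumina libraries, per library, with genes and genomic span. The circle of Zfp933 and Zfp984 was in every library, and the 84 kb circle of Txndc12 and Rab3b had its 238 reads in Adar1-2KO replicate 3, while a shorter circle of these genes that is not drawn was in the other 8 libraries.

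Only 5 bridging circles were listed in all 9 Illumina libraries (0.711%), against 5.02% of circles of 1 gene. Beside the circles of Zfp933 to Zfp984, Zfp53 to Zfp52 and the 140 kb circle of Eif4e3 to Foxp1, these were Rragb to Klf8 (89.6 kb) and Brdt to Ephx4 (34.4 kb). Rragb encodes a Rag GTPase of amino acid sensing and Klf8 a Krüppel-like transcription factor, and their circle had 8, 6 and 38 reads in Adar1-2KO, 4, 7 and 4 in Adar2KO and 5, 5 and 7 in wild type brains. Brdt is known as a bromodomain gene of the testis, and its circle with the epoxide hydrolase gene Ephx4 had 1, 3 and 6 reads in Adar1-2KO, 3, 11 and 13 in Adar2KO and 4, 6 and 1 in wild type brains.

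Other pairs with many circles were Fn3k and Tbcd with 13, Ube2w (a ubiquitin-conjugating enzyme) and Stau2 (a double-stranded RNA binding protein of neuronal RNA transport) with 12, the vomeronasal receptor genes Vmn2r86 and Vmn2r85 with 11, and Rragb and Klf8 with 10. Vmn2r86 and Vmn2r85 share 21.2% of the 31-base stretches of the shorter gene's transcripts, so their reads can be split between copies and their circles are uncertain. At least 1% of such stretches was shared in 31 of the 397 pairs, with 60 circles and 962 reads (12.0% of bridging reads), 1 of them on ONT. Zfp53 and Zfp52 were among them at 1.73%, whereas Zfp933 and Zfp984 shared none. By name, 31 of 779 genes in bridging circles were zinc finger genes (3.98%), against 2.60% of 11300 hosts, and 10 were ion channels or receptors (1.28%), against 1.61%. Protocadherins and cadherins were 37 of 1335 genes among all members and 0 of those in bridging circles.

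Bridging circles took a small share of the reads in every library. Given as reads per 1000000 back-splice reads of the library (RPM), they had 285, 305 and 473 RPM in Adar1-2KO, 248, 307 and 290 in Adar2KO and 286, 379 and 214 in wild type brains. The means were 354 ± 103 in Adar1-2KO, 282 ± 30.1 in Adar2KO and 293 ± 82.4 in wild type brains (SD, n = 3 each). The groups overlapped, and without Adar1-2KO replicate 3 the other Adar1-2KO libraries, at 285 and 305, lay within the wild type range. The libraries listed 150, 102 and 29 bridging circles in Adar1-2KO, 145, 150 and 146 in Adar2KO, and 164, 168 and 91 in wild type brains. Adar1-2KO replicate 3 had 70.2 reads per bridging circle listed, against 3.57 to 6.53 in the other 8, and 198 reads per circle of any kind, against 28.0 to 47.9. By the read names of the CIRI2 tables, 5 libraries were read mainly on flow cell 3, and of these Adar1-2KO replicate 2 had 305, Adar2KO replicate 3 had 290 and the 3 wild type libraries 214 to 379 RPM. Adar1-2KO replicate 3 was read on flow cells 5 and 6, which no other library with read names used. Adar2KO replicates 1 and 2 were read mainly on flow cell 1. For these libraries flow cell and brain cannot be told apart. Circles of overlapping genes held 1680 ± 42.9, 1660 ± 26.7 and 1640 ± 64.6 RPM in Adar1-2KO, Adar2KO and wild type brains.

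**Figure D5:**
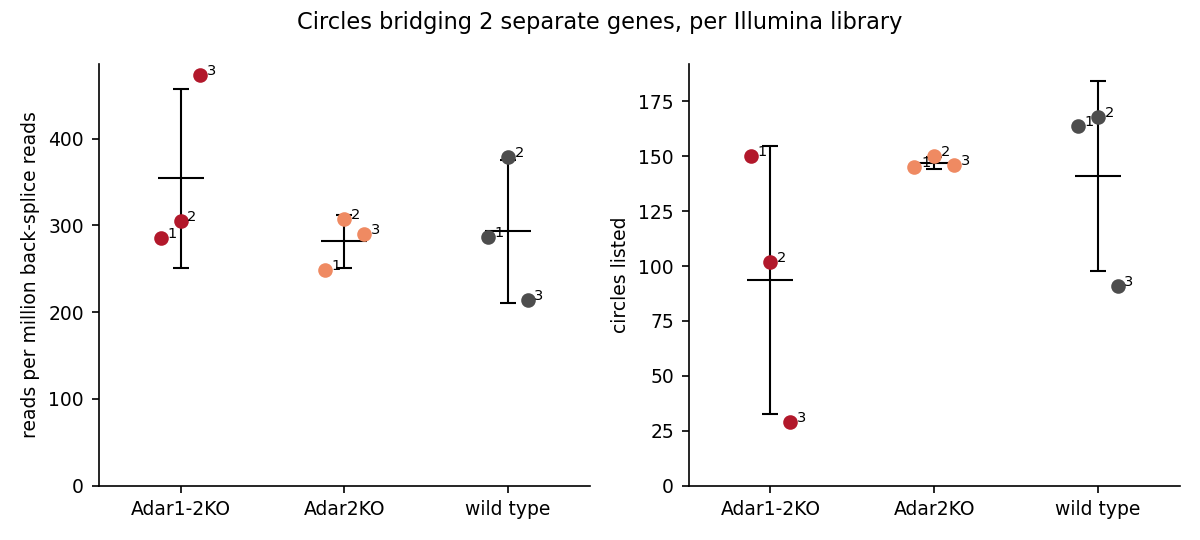
RPM of bridging circles (reads per 1000000 back-splice reads, left) and number of bridging circles listed (right) in each Illumina library, with replicate numbers, group means and SD (n = 3). The groups overlapped in RPM, and Adar1-2KO replicate 3 had the highest share (473) over the fewest circles (29).

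No member circle was called between genotypes at an adjusted p of 0.05. In simulated counts the same test called 4 of 100 circles changed 4-fold and 30 of 100 changed 16-fold. A circle that changed would thus often not be called, and 0 calls do not show that the genotypes were alike. Of the 1980 members, 214 passed the filter of at least 5 reads in at least 3 Illumina libraries, 31 of them bridging. In edgeR's quasi-likelihood test with Benjamini-Hochberg adjustment over 38297 circles, 0 members were called for Adar1-2KO against wild type, where 0.0627% of all circles were, 0 for Adar2KO against wild type, where 0.0209% were, and 0 for Adar1-2KO against Adar2KO, where 0.0209% were. At an unadjusted p of 0.05 the members counted 11, 3 and 9, against 6.74%, 1.82% and 6.38% of all circles. DESeq2 called 1, 0 and 0 members, where 0.452%, 0.0809% and 0.428% of all circles were called. The median log2 fold change of the 31 bridging circles was -0.26 for Adar1-2KO against wild type and 0.14 for Adar2KO against wild type, beside -0.26 and 0.04 over all circles tested. It was -0.85 for Adar1-2KO against Adar2KO, beside -0.31 over all circles. The comparisons share libraries.

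Reads summed per gene pair gave 0 calls as well, among 138 member pairs of 8624 hosts tested with edgeR, where 0.0928% of hosts were called for Adar1-2KO against wild type, 0.0696% for Adar2KO against wild type and 0.0464% for Adar1-2KO against Adar2KO. At an unadjusted p of 0.05 these were 12, 1 and 9 pairs, against 7.64%, 1.75% and 6.59% of hosts, and DESeq2 called 0 in each, where it called 0.603%, 0.162% and 0.51% of hosts. On ONT, edgeR and DESeq2 each called 0 of 56 members tested, none of them bridging, with 4, 1 and 7 at an unadjusted p of 0.05 in edgeR, against 7.49%, 4.28% and 10.6% of all ONT circles. DESeq2 called 0.376%, 0.0386% and 1.47% of all ONT circles in these comparisons. Of all 10367 ONT circles tested, edgeR called 0.0% for Adar1-2KO against wild type, 0.00965% for Adar2KO against wild type and 0.492% for Adar1-2KO against Adar2KO. In the authors' deposited table for Adar1-2KO against wild type, 0 of 1439 members had an adjusted p under 0.05, beside 54 of 160909 circles. The authors' deposited table for Adar2KO holds 772 circles and no member.

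The bridging circles of lowest p whose groups did not overlap are given as values. For Zfp933 to Zfp984 the CPM, here with TMM scaling of the library totals, was 35.3, 63.3 and 139 in Adar1-2KO and 25.6, 24.3 and 14.7 in Adar2KO brains, with 47.0, 47.1 and 23.8 in wild type brains. The log2 fold change of Adar1-2KO over Adar2KO was 1.88 (SE 0.63, edgeR adjusted p = 0.764), and 1.22 without Adar1-2KO replicate 3. Among libraries on flow cell 3, Adar1-2KO replicate 2 had 63.3 CPM and Adar2KO replicate 3 had 14.7 CPM. Zfp53 to Zfp52 had 13.1, 11.4 and 53.7 CPM in Adar1-2KO, 7.75, 7.37 and 5.68 CPM in Adar2KO and 6.35, 7.11 and 5.64 CPM in wild type brains. All Adar1-2KO libraries lay above the others, with a log2 fold change of 2.03 over wild type (SE 0.97, edgeR adjusted p = 0.746), which was 0.95 without Adar1-2KO replicate 3.

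Srcap to Tmem265 (12.9 kb), where Srcap encodes a chromatin remodeller that deposits H2A.Z, lay the other way. It had 3, 7 and 0 reads in Adar1-2KO, 12, 8 and 16 in Adar2KO and 10, 10 and 5 in wild type brains, with a log2 fold change of -1.46 for Adar1-2KO over wild type (SE 1.47, edgeR adjusted p = 1.0) that was -0.85 without Adar1-2KO replicate 3. In CPM its Adar1-2KO values, 0.891, 3.08 and 0.0, lay below the 3.18, 4.44 and 3.14 of wild type brains by a margin smaller than the spread. The 122 kb Eif4e3 to Foxp1 circle had 15.9, 13.0 and 18.1 CPM in Adar2KO and 6.99, 4.89 and 6.27 CPM in wild type brains, which did not overlap, with a log2 fold change of 1.36 (SE 1.28, edgeR adjusted p = 1.0).

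Circles of overlapping genes included more abundant ones. The one with most reads, of Fam53b and Eef1akmt2 (9.51 kb, chr7:132429432-132438936), had 360, 321 and 508 CPM in Adar1-2KO, 444, 393 and 369 CPM in Adar2KO and 489, 359 and 472 CPM in wild type brains, and 1044 ONT reads in 8 libraries. Eef1akmt2 encodes a lysine methyltransferase of a translation elongation factor. A 152-base circle of Pabpn1, the nuclear poly(A) binding protein, and Bcl2l2, which encodes the survival protein Bcl-w, had 181, 330 and 65.1 CPM in Adar1-2KO, 273, 122 and 287 CPM in Adar2KO and 124, 90.2 and 222 CPM in wild type brains. Circles of Iqschfp and Schip1 (4.63 kb), Cep112 and Cep112it (196 kb), and Lrrc70 and Ipo11 (36.1 kb) followed, with mean CPM of 86.6, 82.8 and 78.2 over 9 libraries. No strand-marking step is named for the libraries, so the gene of such a circle is uncertain.

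The overlapping pairs with most circles were Ipw and Snhg14 with 77, Rbms3 and Zcwpw2 with 31, and Eef1akmt2 with Fam53b, Eml6 with Fem1al and the Ipo11 set with 21 each. Summed over circles, Ipw and Snhg14, noncoding genes of the imprinted Prader-Willi interval, had 50.4, 10.3 and 4.46 CPM in Adar1-2KO, 94.9, 108 and 71.4 CPM in Adar2KO and 55.5, 102 and 104 CPM in wild type brains. All Adar1-2KO libraries lay below the others, with a log2 fold change of -2.0 over wild type (SE 0.69, edgeR adjusted p = 0.541). This pair was called, as lower in Adar1-2KO, when Adar1-2KO replicate 1 was left out, and the 1 circle that DESeq2 called was also of these genes. Rbms3 and Zcwpw2 had 54.3 to 163 CPM in Adar1-2KO, 36.3 to 65.8 CPM in Adar2KO and 37.6 to 64.4 CPM in wild type brains, groups that overlapped.

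Genes linked by overlap with a further named gene also gave abundant circles. Synj2bp with Cox16, named together with Gm20498, gave a 36.4 kb circle (chr12:81521361-81557739) with 295, 151 and 362 reads in Adar1-2KO, 228, 229 and 237 in Adar2KO and 185, 178 and 113 in wild type brains, and 260 ONT reads in 8 libraries. Rbm4 with Rbm14, genes of RNA binding proteins named with Gm21992, gave an 11.6 kb circle with 116, 53 and 193 reads in Adar1-2KO, 112, 149 and 102 in Adar2KO and 132, 100 and 71 in wild type brains. For the circle of Synj2bp and Cox16 the Adar2KO libraries lay above wild type, at 79.2 to 99.3 CPM against 58.7 to 79.1 CPM. The log2 fold change was 0.35 (SE 0.41), and Adar1-2KO, at 66.4 to 87.9 CPM, overlapped both. For the circle of Rbm4 and Rbm14 the 3 groups overlapped. These 2 circles, the ONT structures beyond those the naming rule gave, and the circles of Rragb and Brdt were picked after their values were seen. No member carried the name of Adarb1, Adar, Ifih1 or Gria2.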

How the data were processed

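The authors' CIRIquant 1.1.2 tables, per the file headers, list back-splice counts per circle, a junction ratio (a fraction) and a CPM value that was not used here. The deposited CIRI2 and ONT tables hold read counts, and the ONT tables list circles from 2 reads. Per the submitters' processing notes, tools included bcl2fastq, BWA 0.7.17 and DESeq2 2.11.40.8, with GRCm39. The authors' comparison tables hold, per the file headers, a base mean, which is a signal averaged after normalization, with a log2 fold change and p-values. Values of the Adar1-2KO circle tables, shifted 1 column to the right of the headers, were put back. CIRI2 counts of Adar1-2KO replicate 1 and ONT reads of wild type replicate 1 were not used here.

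Counts were tested with edgeR 4.0.16 (two-sided quasi-likelihood F-test, TMM scaling, 9 Illumina libraries or 8 ONT libraries in 1 fit, genotype as the only term), for features that reached 5 reads in 3 or more libraries and a threshold of 0.05, after a test on simulated data. The simulated data held changes in Adar2KO against wild type. Of these, 4 of 100 circles changed 4-fold and 30 of 100 changed 16-fold were called, with 7 false calls. DESeq2 1.42.0 was an alternative. A pair's order and overlap came from GENCODE M21 and RefSeq annotations of GRCm38, of which no coordinate is printed, a step added after the data were seen. Members and lists were chosen with earlier results of these data known. Named by rule were the 10 bridging circles and 5 overlapping circles of highest mean CPM, the 5 pairs of each kind with most circles, bridging circles in most libraries of both platforms or of extreme length, and up to 3 of lowest p per comparison whose groups did not overlap. An item that this rule named is not reported here. Intervals for counts were not given, because reads after rolling-circle amplification and PCR are not independent molecules.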

Additional observations from a re-analysis of the deposited data

How the results depend on the processing

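Of 150 alternatives of the 9 counts of called members, 143 gave 0. The others gave 1 call, lower in Adar1-2KO each time. Against wild type these were 1 with DESeq2, 1 with at least 1 read in 2 libraries and 1 with CIRI2 counts for Illumina circles, 1 for gene pairs without Adar1-2KO replicate 1 (range 0 to 1), and 1 for ONT circles with at least 1 read in 2 libraries. Against Adar2KO they were 1 with at least 1 read in 2 libraries and 1 with CIRI2 counts. None was a bridging circle. Over all features these settings called 0.452% with DESeq2 and otherwise 338 of 92793, 24 of 44688, 16 of 8239 and 111 of 35087 against wild type, and 291 of 92793 and 26 of 44688 against Adar2KO. A replicate block gave 0 called members in each of the 9 tests. Same-numbered libraries did not deviate together (correlations -0.03 to 0.02), which cannot decide whether the numbers pair samples. The block moved calls over all ONT circles for Adar1-2KO against Adar2KO to 28, from 51 without it, and over Illumina circles of that comparison to 5, from 8.

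The read-through class by GRCm39 ends of single-gene circles held 413 circles, 781 with predicted and small RNA names kept, 63 in at least 3 libraries, and 703 by neighbour relation. Its share differed from wild type by -26.3 RPM in Adar1-2KO, -64.5 with CIRI2 reads and 58.8 with predicted and small RNA names kept, and by -0.775 in Adar2KO, or 42.7 with those names kept. Leaving out 1 library gave -44.5 to -11.2 and -18.9 to 14.4. For bridging circles the difference of Adar1-2KO minus wild type was 61.4 RPM, 2.15 with CIRI2 reads and 23.2 without the main Zfp933 to Zfp984 circle, and that of Adar2KO minus wild type was -11.2 RPM, -29.3 with CIRI2 reads and 7.5 without that circle. Leaving out 1 library gave 2.1 to 104 RPM for Adar1-2KO minus wild type, the lowest without Adar1-2KO replicate 3, and -50.6 to 31.6 for Adar2KO minus wild type, whose sign turned without wild type replicate 2 or Adar2KO replicate 1. No cause of these shifts was tested.

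With a median of 3 reads per bridging circle, most could not enter a test, and absence from a library is not shown by 0 reads.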
